A study of Homo sapiens with 3 samples.

Results

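The androgen axis and prostate luminal genes described here are 8 genes, KLK2, KLK3, TMPRSS2, FOXA1, FOLH1, STEAP1, STEAP2 and FKBP5. They were chosen by gene symbol and not by a rule on the measured values, from the 59719 genes of the expression table. Earlier results of these data were known when they were chosen. RNA-seq was performed on total RNA of PC3 cells, a prostate cancer cell line that grows without androgen. The series holds 3 libraries. The library shCON (labelled RFP) came from cells with the vector control, and shUSP16#1 and shUSP16#2 came from cells that stably expressed 1 of 2 different short hairpin RNAs against USP16, the ubiquitin-specific protease that the study knocked down. All 3 lines carried the pLKO.1 vector and were selected with puromycin, and the sources used here do not say whether they were clones or mixed populations. Each condition had 1 library, so no difference has a replicate check and no p-value is given. Values are TPM, a unit of transcript abundance that is scaled by gene length and by library, so levels of different genes can be compared, while sequencing depth and counting error are unknown.

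In luminal cells of the prostate, androgens switch on genes such as KLK2, KLK3, TMPRSS2 and FKBP5. FOXA1 is a pioneer factor that opens chromatin for other transcription factors. FOLH1, STEAP1 and STEAP2 encode proteins of the prostate cancer cell surface, and FOLH1 and STEAP1 are used as therapeutic targets. PC3 is known as a model that grows without this signal.

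The question was which of these genes PC3 cells express and whether knockdown of USP16 brought any silent gene back. KLK2 and KLK3 were listed at 0 TPM in all 3 libraries, FOLH1 stayed under 1 TPM, and the other 5 genes reached at least 1 TPM in shCON. None of the 3 low genes reached 1 TPM under either hairpin. FKBP5 was lower, at least 2-fold under both hairpins. TMPRSS2 was higher, mainly under shUSP16#1, STEAP1 and STEAP2 were lower, and FOXA1 differed little.

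USP16 itself, the check of the knockdown, was at 19.92 TPM in shCON, against 3.5 TPM with shUSP16#1 and 1.08 TPM with shUSP16#2. The sense sequences of both hairpins are given because they define the groups.
shUSP16#1: gccagaagaaatcatgtttat
shUSP16#2: cggtgatattccacaagattt
In no transcript of the 8 genes was a run of more than 10 of these 21 bases found, in either orientation. Shorter runs were present in all 8 genes, and effects of the hairpins on transcripts other than USP16 were not tested.

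The 2 silent genes, KLK2 (ENSG00000167751) and KLK3 (ENSG00000142515), encode secreted kallikrein proteases, and KLK3 is prostate-specific antigen (PSA). They are neighbours on chromosome 19. In RefSeq (GRCh38.p14), 6 of the 8 genes had a promoter window of 250 bases before and 50 bases from the transcript start, with 8 windows in all. The windows of KLK2 and KLK3 were 80.2% identical over 313 alignment columns, and their longest shared run was 80 bases. The 30 bases around the proximal androgen response element of KLK3, and the nearest match to it in KLK2, are shown because both genes are classical androgen targets and both were listed at 0. Capitals mark the 15 bases of the element.
KLK3, chr19:50854738-50854767, plus strand: taattgcAGAACAGCAAGTGCTagctctcc
KLK2, chr19:50873256-50873285, plus strand: tatgtgtGGAACAGCAAGTGCTggctctcc
The capitals begin at position -170 relative to the start of KLK3 and at -176 relative to that of KLK2. They differ by 1 substitution, A1G, counted from the 5′ end of the element with the KLK3 base given before the position. The 6-base motif AGAACA, or TGTTCT on the other strand, was found in 1 window of KLK3 and 1 of FKBP5, and in 14.8% of all 35116 windows. The full palindrome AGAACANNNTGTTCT was in none of the 8 windows and in 1 of all windows. A match is a description of letters, and binding was not measured.

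KLK2 and KLK3 were the 2 genes of the 8 under 0.1 TPM in all 3 libraries. Among protein-coding genes 27.6% were under 0.1 TPM in all 3, and 19.2% were listed at 0 in all 3. No fold change was computed for KLK2 and KLK3.

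The low levels did not extend to the whole kallikrein cluster. In the order of the genes on the chromosome, KLK1, KLK15, KLK3, KLK2 and KLK4 were at or below 0.16 TPM in shCON. The next gene, KLK5, was at 60.47, 76.72 and 99.8 TPM in shCON, shUSP16#1 and shUSP16#2. KLK6, which follows it, was the highest kallikrein in shCON at 158.4 TPM, with 170.25 and 145.99 TPM under the hairpins. KLK8 was at 2.41, 3.92 and 5.24 TPM. Thus 3 of the 13 other kallikreins reached 1 TPM in shCON, against 58.2% of protein-coding genes, and all 3 lie on the KLK5 side of the cluster. None of the 3 was past 2-fold under both hairpins, against 4.60% lower and 1.14% higher of all tested genes. For so few genes a count of 0 is near those shares. KLK4, an androgen-regulated kallikrein of the prostate, was listed at 0 TPM in shCON and under shUSP16#1 and was at 0.51 TPM under shUSP16#2.

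**Figure D1:**
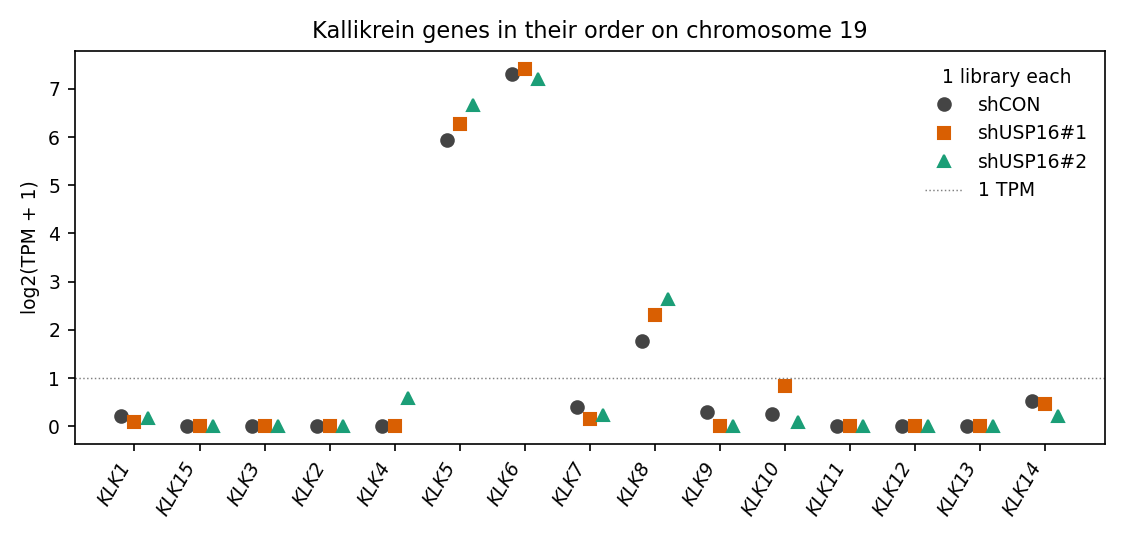
Levels of the 15 kallikrein genes in their order on chromosome 19 (x axis, order only) as log2(TPM + 1) (y axis), with 1 point for each library and a dotted line at 1 TPM. KLK5, KLK6 and KLK8 lie above the line in all 3 libraries, and KLK2 and KLK3 lie at 0.

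FOLH1 (ENSG00000086205, chromosome 11) encodes prostate-specific membrane antigen (PSMA), a folate hydrolase of the cell surface. It was at 0.56 TPM in shCON, against 0.23 TPM with shUSP16#1 and 0.1 TPM with shUSP16#2. Both hairpin libraries were thus below shCON, and all 3 values lay under 1 TPM, where a few reads can decide the level. Of the distinct 50-base words in its transcripts, 28.1% also occur in FOLH1B, a near-identical copy, so reads may have been divided between these genes. FOLH1B was at 0.03, 0.04 and 0.02 TPM. NAALADL2, the highest of 4 relatives, was at 1.54 TPM in shCON and at 0.39 and 0.32 TPM under the hairpins. Under the definition of regained expression, from under 1 TPM in shCON to at least 1 TPM under a hairpin, 0 of the 3 low genes qualified. The same change was seen in 4.18% of the 8317 protein-coding genes under 1 TPM in shCON.

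**Figure D2:**
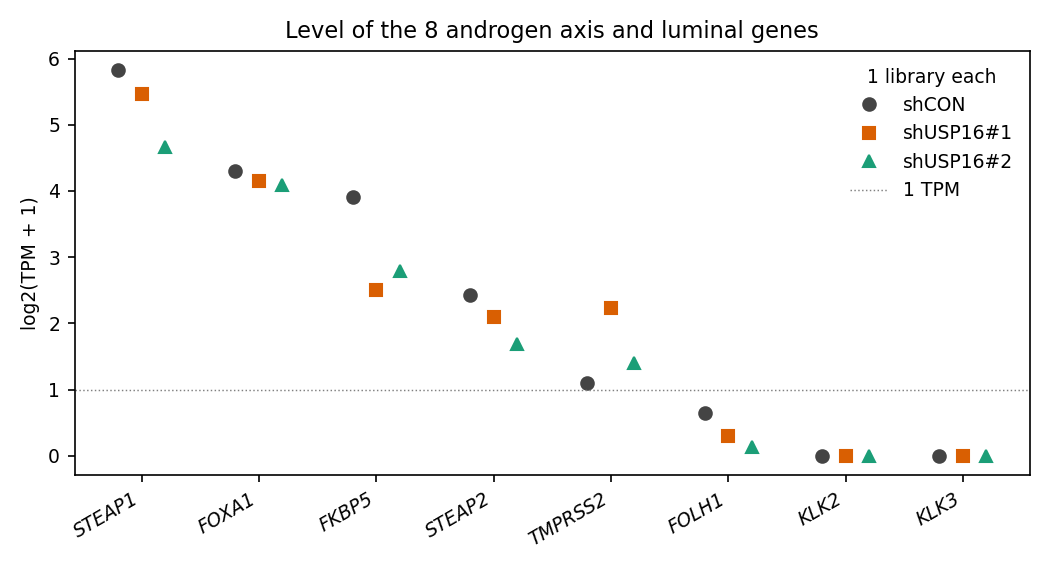
Levels of the 8 genes as log2(TPM + 1) (y axis), ordered by their level in shCON (x axis), with 1 point for each library and a dotted line at 1 TPM. KLK2 and KLK3 lie at 0, FOLH1 lies under the line in every library, and FKBP5 lies at least 1 unit lower in both hairpin libraries than in shCON.

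The other 5 genes were expressed in shCON, against 58.2% of protein-coding genes with at least 1 TPM there. In shCON their order was STEAP1, FOXA1, FKBP5, STEAP2 and TMPRSS2. Neighbours in this order differed by ratios of 2.98, 1.33, 3.20 and 3.88, and without replicates it cannot be said which of these exceed the spread between cultures. Under shUSP16#1 TMPRSS2 was above STEAP2, and under shUSP16#2 the order was that of shCON.

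Differences between libraries are given as log2(TPM + 1) of a hairpin minus shCON, which makes the differences of low genes smaller, and a 2-fold difference is 1 on this scale. They were computed for all genes and are compared with the 13637 genes that had a mean of at least 1 TPM, called tested genes although the libraries allow no statistical test. Both hairpins are compared with the same shCON library, so the 2 differences of a gene are not independent. Over the tested genes the median was -0.17 with shUSP16#1 and -0.37 with shUSP16#2, so differences are also given relative to it (centred). Among tested genes 4.60% were at least 2-fold lower under both hairpins and 1.14% at least 2-fold higher, or 627 and 155 genes. After centring the split was 273 lower and 341 higher genes. Of the 8 genes, 5 were tested. Only FKBP5 was at least 2-fold lower under both hairpins, and 0 were at least 2-fold higher under both.

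FKBP5 (ENSG00000096060, chromosome 6) encodes FKBP51, a co-chaperone of HSP90 that acts in complexes with steroid receptors and is induced by androgens and glucocorticoids. It was at 14.04 TPM in shCON, against 4.7 TPM with shUSP16#1 and 5.89 TPM with shUSP16#2. Both hairpin libraries lay close together and well below shCON, at 0.335 and 0.420 of its level. The log2 differences were -1.40 and -1.13, and 1.04% of tested genes were at least as low under both hairpins. Past 2-fold lower were 5.79% of tested genes under shUSP16#1 and 19.5% under shUSP16#2. Relative to the median of tested genes the differences of FKBP5 were -1.23 and -0.76, so the 2-fold mark was then passed under shUSP16#1 only. Removing the trend with GC content gave -1.12 and -0.66. RPL10A and TEAD3, the genes near FKBP5 that had at least 1 TPM, differed by -0.07 and 0.37 under shUSP16#1 and by -0.08 and 0.27 under shUSP16#2.

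FKBP5 is also a target of the glucocorticoid receptor, encoded by NR3C1. NR3C1 was at 5.11 TPM in shCON, against 2.19 TPM with shUSP16#1 and 1.86 TPM with shUSP16#2, log2 differences of -0.94 and -1.10. Both hairpin libraries were thus lower for the receptor gene as well, short of 2-fold under shUSP16#1. The differences were -0.77 and -0.73 after centring and -0.59 and -0.56 with the GC trend removed. The glucocorticoid response list, 20 other genes induced through this receptor, did not move in 1 direction. Of its 18 tested genes 1 was at least 2-fold lower and 2 were at least 2-fold higher under both hairpins, against 4.60% and 1.14% of all tested genes. Of the 18, 7 lay on each side of shCON under both, against 57.2% lower and 24.5% higher of all tested genes. The median differences of the list were 0.07 and -0.28, or 0.24 and 0.08 after centring. For the mean of both hairpins its median was -0.10, and -0.46 with the GC trend removed. The median of all tested genes was -0.27, so the place of the list relative to it depended on the processing. SGK1, a serum- and glucocorticoid-induced kinase, was at 22.77, 10.49 and 7.06 TPM. TSC22D3, which encodes the glucocorticoid-induced leucine zipper, was at 6.05, 9.83 and 8.09 TPM. ANGPTL4, a secreted inhibitor of lipoprotein lipase, was at 1.29, 9.68 and 7.80 TPM, and DDIT4, an inhibitor of mTORC1 signalling, at 41.89, 101.73 and 89.57 TPM. FKBP5 and SGK1 were lower while ANGPTL4 and DDIT4 were higher in the same hairpin libraries. Receptor activity was not measured, and its part in these differences was not tested.

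The FKBP list held 14 other immunophilins with a peptidyl-prolyl isomerase domain or a related one, of which 13 were tested and 0 were past 2-fold under both hairpins, against 4.60% lower and 1.14% higher of all tested genes. Their median differences were -0.03 and -0.23, or 0.14 under each hairpin after centring. FKBP4, the related co-chaperone FKBP52, was at 74.54, 80.2 and 65.6 TPM, and FKBP1A, the highest of the family in shCON, was at 572.78, 559.9 and 466.7 TPM. FKBP8 was at 200.33, 301.31 and 300.66 TPM, and FKBP3 at 139.3, 96.99 and 70.78 TPM.

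TMPRSS2 (ENSG00000184012, chromosome 21) encodes a serine protease of the luminal cell surface, whose promoter is androgen-driven and is fused to ERG in many prostate tumours. It was at 1.13 TPM in shCON, against 3.68 TPM with shUSP16#1 and 1.63 TPM with shUSP16#2. The library of shUSP16#1 stood apart, and shUSP16#2 was close to shCON. The log2 differences were 1.14 and 0.30. At least 2-fold higher were 2.83% of tested genes under shUSP16#1 and 2.80% under shUSP16#2, and 1.57% were at least as high as TMPRSS2 under both. Since it already had 1 TPM in shCON, it did not count as regained. Its family was mostly low. Of 16 relatives, 15 were under 1 TPM in all 3 libraries, while 58.2% of protein-coding genes had at least 1 TPM in shCON. Under 0.1 TPM in all 3 were 10 of the 16, against 27.6% of protein-coding genes. The highest relative, TMPRSS13, was at 2.08, 2.14 and 2.48 TPM.

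FOXA1 (ENSG00000129514, chromosome 14), the pioneer factor, was at 18.7 TPM in shCON, against 16.77 TPM with shUSP16#1 and 16.01 TPM with shUSP16#2. All 3 libraries were within a narrow range. The log2 differences were -0.15 and -0.21, and they changed sign after centring, to 0.02 and 0.16. Its paralogs were not expressed, with FOXA2 at no more than 0.04 TPM and FOXA3 listed at 0 in every library. HOXB13, a homeobox factor of the prostate lineage, was at 17.23, 26.76 and 21.16 TPM, and its log2 differences were 0.61 and 0.28, or 0.38 and -0.07 with the GC trend removed. GATA2, a zinc finger transcription factor, was at 9.36, 7.05 and 9.47 TPM. PC3 cells thus held FOXA1, HOXB13 and GATA2 transcripts in all 3 libraries.

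STEAP1 (ENSG00000164647) and STEAP2 (ENSG00000157214) encode membrane proteins of the family of metalloreductases and are adjacent genes on chromosome 7. STEAP1 was at 55.78 TPM in shCON, against 43.15 TPM with shUSP16#1 and 24.45 TPM with shUSP16#2. Both hairpin libraries were below shCON, and shUSP16#2 was the lowest. The log2 differences were -0.36 and -1.16, or -0.19 and -0.79 after centring, so the 2-fold mark was passed under shUSP16#2 alone and not after centring. Of its 50-base words 21.4% also occur in STEAP1B, which was at 3.12, 1.82 and 0.82 TPM, so part of these reads may have been assigned to either gene.

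STEAP2 was at 4.39 TPM in shCON, against 3.28 TPM with shUSP16#1 and 2.22 TPM with shUSP16#2, in the same order as STEAP1. Its log2 differences were -0.33 and -0.74, and 26.2% of tested genes were at least as low under both hairpins, against 12.8% for STEAP1. GTPBP10, an expressed gene near them, was at 9.17, 5.97 and 4.54 TPM. STEAP1B had the same order as STEAP1 and STEAP2, and STEAP3 and STEAP4 did not. STEAP3, a ferrireductase of iron uptake, was at 23.73, 19.47 and 21.48 TPM, and STEAP4 was at 1.09, 3.22 and 1.41 TPM, with the highest value under shUSP16#1 as for TMPRSS2.

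The trend of the differences with the GC content of transcripts over all tested genes was removed as an alternative, and the members with lower levels were poor in GC. The GC content was 36.9% for STEAP2, 42.5% for STEAP1 and 43.9% for FKBP5, below the median of 49.9% of tested genes. It was 51.3% for FOXA1 and 52.4% for TMPRSS2. With the trend removed, the mean of both hairpins for STEAP2 went from -0.54 to 0.03, that for STEAP1 from -0.76 to -0.37 and that for FKBP5 from -1.26 to -0.89. TMPRSS2 went from 0.72 to 0.59. The difference of STEAP2 was therefore near 0 with this alternative, and those of STEAP1 and FKBP5 were smaller and in the same direction.

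**Figure D3:**
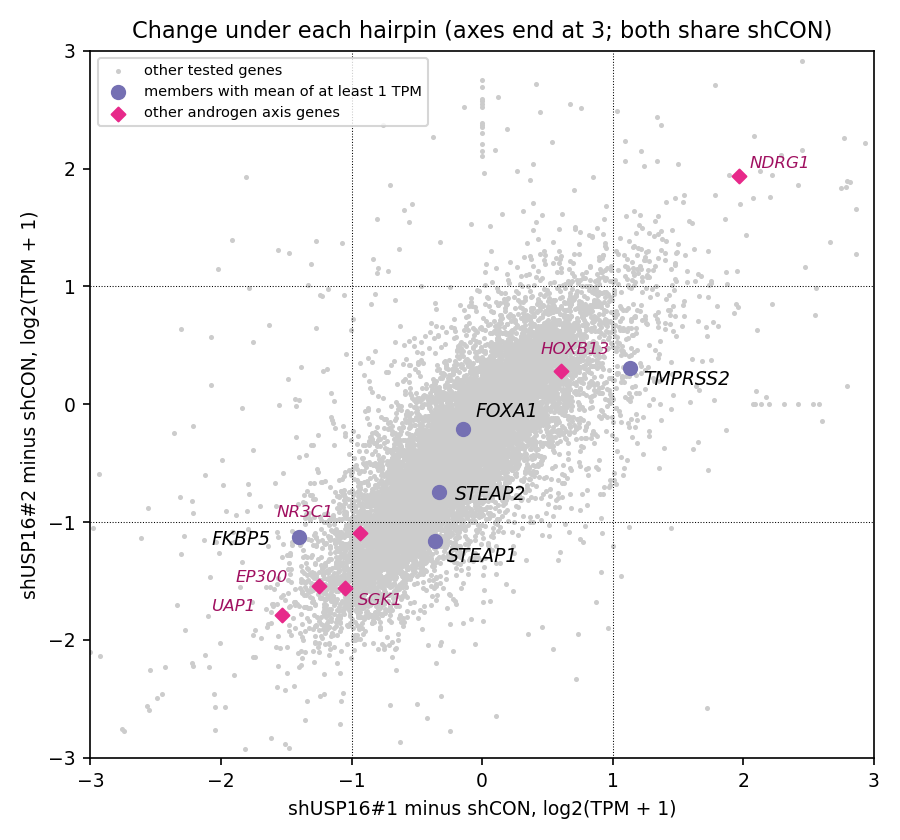
Difference from shCON on the log2(TPM + 1) scale under shUSP16#1 (x axis) and shUSP16#2 (y axis) for tested genes (grey), the 5 tested members (violet) and other named androgen axis genes (pink), with dotted lines at 2-fold. FKBP5 lies past both lines at -1.40 and -1.13, TMPRSS2 lies past the line of shUSP16#1 only, STEAP1 past that of shUSP16#2 only, and 151 tested genes lie beyond the axes.

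The genes nearest to each tested member were found by the Euclidean distance over its 2 log2 differences among 11492 other protein-coding genes. For FKBP5 they were ARHGAP11B, IL6ST and TASOR2, and 9 genes lay within 0.1. For TMPRSS2 they were RNF43, CTXN1 and KCNMA1, and 4 genes lay within 0.1. For STEAP1 they included FAM200B and SOS2, for STEAP2 they were MARS2, WWOX and PMS2, and for FOXA1 UBE2J2, YKT6 and ITPRIP. Within 0.1 there were 70 genes for STEAP1, 241 for STEAP2 and 307 for FOXA1. The pairs of differences of FKBP5 and TMPRSS2 thus had few close neighbours, and those of FOXA1 and STEAP2 had many. Likeness over 3 libraries is a description of 2 values only.

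The androgen response list, 30 other genes induced by androgens, was not silent as a whole. At least 1 TPM in shCON was found for 21 of them, against 58.2% of protein-coding genes. None of the other 9 reached 1 TPM under a hairpin, against 4.18% of protein-coding genes under 1 TPM in shCON. For 9 genes a count of 0 is near that share. PART1, MAF, PIP and CRISP3 were at no more than 0.12 TPM in every library. ALDH1A3, a retinaldehyde dehydrogenase, was the highest at 869.34, 695.15 and 721.66 TPM. Of 20 tested genes 2 were at least 2-fold lower and 1 at least 2-fold higher under both hairpins, and 13 were lower and 4 higher than shCON under both at any size. Over all tested genes 57.2% were lower and 24.5% higher under both, and 4.60% and 1.14% were past 2-fold in these directions. The median differences of the list were -0.55 and -0.34, or -0.38 and 0.03 after centring.

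UAP1, an enzyme of the hexosamine pathway, was at 160.44 TPM in shCON, against 54.72 TPM with shUSP16#1 and 45.82 TPM with shUSP16#2. Its log2 differences of -1.53 and -1.79 were the furthest below shCON in the list, and they stood past 2-fold after centring (-1.36 and -1.42) and with the GC trend removed (-1.16 and -1.23). SGK1 is also in this list. NDRG1, a stress-responsive gene, was at 123.37, 485.39 and 475.47 TPM, differences of 1.97 and 1.94. SLC45A3, a prostate transporter gene, was at 12.3, 12.7 and 10.59 TPM.

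**Figure D4:**
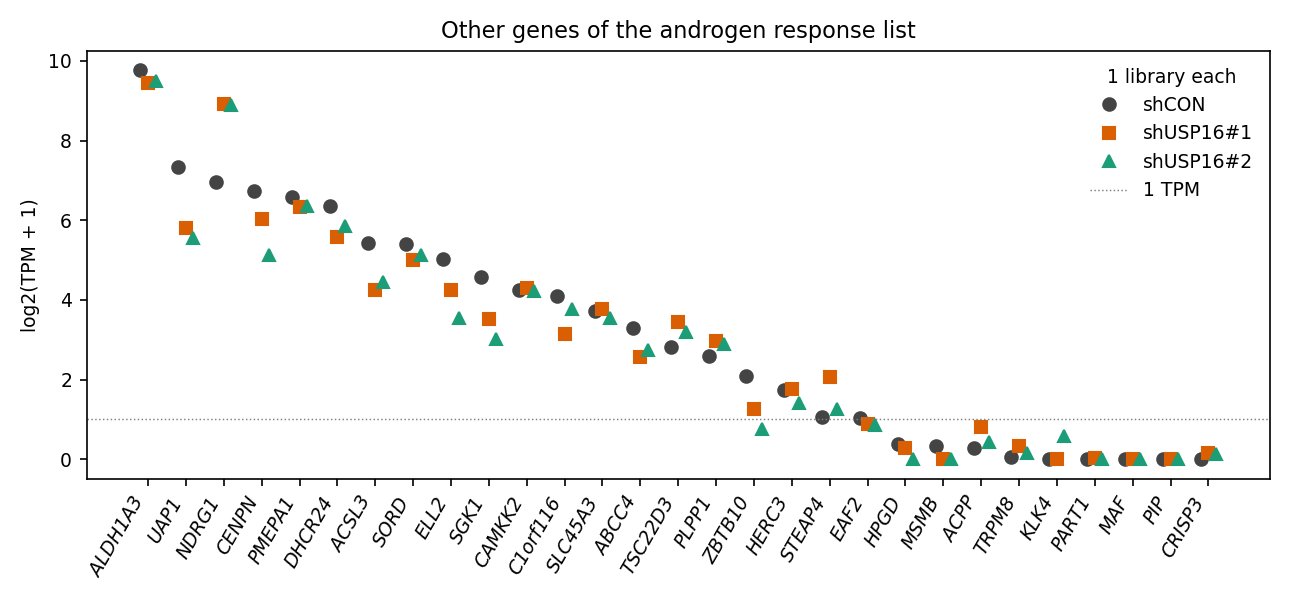
Levels of 29 genes of the androgen response list as log2(TPM + 1) (y axis), ordered by their level in shCON (x axis), with 1 point for each library and a dotted line at 1 TPM. The 9 genes at the right lie under the line in every library, UAP1 lies lower under both hairpins, and NDRG1 lies higher under both.

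In the list of receptors, lineage factors, coregulators and chaperones, 18 of 23 genes were tested. Of these, 2 were at least 2-fold lower under both hairpins and 0 at least 2-fold higher, against 4.60% and 1.14% of all tested genes. The median differences were -0.51 and -0.91, or -0.33 and -0.54 after centring. EP300, a histone acetyltransferase and transcriptional coactivator, was at 12.9, 4.85 and 3.77 TPM. HSP90AA1, a chaperone of steroid receptors that works with FKBP51, was at 291.07, 134.39 and 81.65 TPM, log2 differences of -1.11 and -1.82. After centring they were -0.94 and -1.45, short of 2-fold under shUSP16#1.

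In the list of genes that make or break down androgens, 8 of 22 had at least 1 TPM in shCON, against 58.2% of protein-coding genes. These 8 were tested. The 5 genes CYP17A1, HSD3B2, SRD5A2, UGT2B17 and SULT2A1 were listed at 0 in all 3 libraries. Their share of the 22 is near the 19.2% of all protein-coding genes listed at 0 in all 3. SRD5A3, a steroid 5-alpha-reductase family member, was at 13.29, 18.9 and 20.65 TPM, and STS, the steroid sulfatase, was at 3.84, 2.25 and 1.21 TPM. None of the 8 was past 2-fold under both hairpins, against 4.60% lower and 1.14% higher of all tested genes. The median differences were -0.16 and 0.19, or 0.01 and 0.56 after centring.

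The labelled cell type was checked with lists of prostate luminal, basal, neuroendocrine and mesenchymal genes. Of 25 luminal genes other than the members, 20 had at least 1 TPM in shCON, against 58.2% of protein-coding genes. They were led by the keratins KRT18 (947.26 TPM) and KRT8 (748.25 TPM), while the secretory products ACPP (0.21 TPM) and MSMB (0.26 TPM) were low. The summed level of the luminal list was between 3051 and 3217 TPM in the 3 libraries, and its largest terms were keratins. KRT19 was at 507.12, 837.54 and 957.97 TPM, while KRT18 was at 947.26, 778.16 and 893.31 TPM and KRT8 at 748.25, 622.39 and 642.43 TPM. The sum thus mostly follows these genes and hides their opposite directions. Past 2-fold under both hairpins were 0 of the 19 tested luminal genes, against 4.60% lower and 1.14% higher of all tested genes. Of the 19, 9 were lower and 7 higher than shCON under both, against 57.2% and 24.5% of all tested genes. Among the higher was ELF3, an epithelial factor, at 24.05, 47.11 and 40.47 TPM. Among the lower was EPCAM, at 273.5, 165.62 and 135.93 TPM. In the basal list 9 of 14 genes had at least 1 TPM in shCON, a share near the 58.2% of protein-coding genes. They were led by CD44 (1005.42 TPM) and LAMB3 (318.55 TPM), while the defining basal genes KRT5, KRT14 and TP63 were at no more than 0.3 TPM in every library. The neuroendocrine genes CHGB, NCAM1, INSM1 and NEUROD1 were listed at 0 in every library. The 2 tested genes of the 16 in that list were ENO2, at 16.07, 22.98 and 31.68 TPM, and DLL3, at 5.63, 4.66 and 5.82 TPM.

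The basal list summed to 1778 TPM in shCON, against 1374 TPM with shUSP16#1 and 1615 TPM with shUSP16#2, and the mesenchymal list to 436.4, 250.6 and 175.0 TPM. The largest term was CD44 in the basal sum (1005.42, 605.65 and 706.97 TPM) and FN1 in the mesenchymal sum. In the basal list 1 of 9 tested genes (ITGA6) was at least 2-fold lower and 2 (KRT15 and ITGB4) were at least 2-fold higher under both hairpins. Over all tested genes these shares were 4.60% and 1.14%. In the mesenchymal list 0 of 6 tested genes were past 2-fold under both, and 5 were lower than shCON under both, against 57.2% of all tested genes. The median differences of that list were -0.63 and -1.18, or -0.45 and -0.81 after centring. FN1, the gene of fibronectin, was at 230.15, 115.28 and 71.14 TPM, and CDH2, of N-cadherin, at 12.92, 6.09 and 5.39 TPM. These genes differed in the same libraries as FKBP5 and TMPRSS2, and their part in those differences was not tested. In bulk RNA, fewer cells of a kind and less RNA per cell cannot be told apart.

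**Figure D5:**
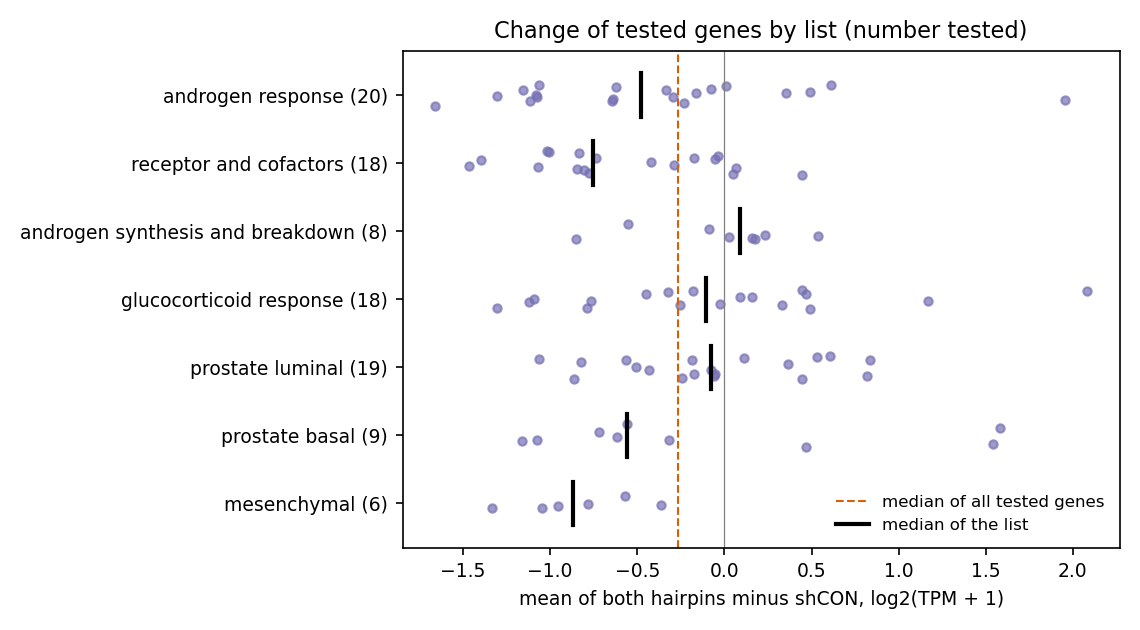
Mean difference of both hairpins from shCON on the log2(TPM + 1) scale (x axis) for each tested gene of 7 lists (y axis, number tested in parentheses), with list medians as black bars and the median of all tested genes as a dashed line at -0.27. The medians of the luminal, glucocorticoid and androgen synthesis lists lie to the right of the dashed line, and those of the androgen response, receptor, basal and mesenchymal lists lie to the left.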

How the data were processed

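RNA-seq of PC3 cells covered 3 libraries, shCON, shUSP16#1 and shUSP16#2. The authors deposited TPM values for 60930 entries, from sequencing by Majorbio and the Majorbio Cloud Platform. The submitters' processing notes name CASAVA, HISAT2 and hg19. The quantification tool and annotation are not given in the sources used here. TPM keeps no depth, so no interval could be given. The 3 columns that repeat others were not used, nor was the annotation to GO and KEGG terms. For a repeated name the entry with the highest mean was used, which left out 1211. Genes whose mean over the libraries reached 1 TPM were compared on log2(TPM + 1), with 2-fold as the threshold.

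The members and lists were chosen with earlier results of these data known, and the lists were written from general knowledge. Of 193 list genes, 1 (ACP3, listed as ACPP) was matched by Ensembl identifier. Named were the members, USP16, NR3C1, HOXB13 and GATA2, genes past 2-fold under both hairpins (at most 5 in each direction per list, or the 2 nearest to it), the highest relatives in shCON, and the 3 genes nearest to each member. All further genes were named with their values in view. Some genes that the rule names are not reported here. GC content came from the GENCODE 29 transcript nearest in length to the deposited gene length (available for 97.5% of tested genes), and its trend was removed by medians of 50 bins. Shared 50-base words came from the same transcripts, and promoters and gene order from RefSeq. Alternatives were a pseudocount of 0.1, centring, GC removal, each hairpin alone, and other minimum levels. Python 3.11.15, numpy 2.4.6, pandas 2.3.3 and matplotlib 3.10.9 were used.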

Additional observations from a re-analysis of the deposited data

Results flagged for a closer look

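The differences from the shared shCON library had opposite signs under the hairpins for GATA2 (-0.36 under shUSP16#1 and 0.015 under shUSP16#2) and for KLK6 (0.10 and -0.12), on the log2(TPM + 1) scale. The same held for the median of the androgen synthesis and breakdown list (-0.16 and 0.19) and for that of the glucocorticoid response list (0.072 and -0.28). After centring, the signs were the same for KLK6 (0.27 and 0.25), the androgen synthesis list (0.01 and 0.56) and the glucocorticoid list (0.24 and 0.08). GATA2 was at -0.19 and 0.38 after centring, and at -0.80 and -0.62 with the GC trend removed. The opposite signs thus depended on the processing. With 1 library for each hairpin, these differences between the hairpins were not tested.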

How the results depend on the processing

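No paired analysis was possible because there was 1 library for each condition. The count of 1 member past 2-fold lower with both hairpins (FKBP5) became 0 after centring and 0 with the GC trend removed, and each hairpin alone gave from 1 to 2 lower genes and from 0 to 1 higher genes. The 5 expressed members became 6 at a limit of 0.5 TPM (with FOLH1) and 4 at a limit of 2 TPM (without TMPRSS2). The 2 silent and 0 regained members did not change under their alternatives, which did not include a limit of 2 TPM. That limit lies between the levels of TMPRSS2 in shCON (1.13 TPM) and under shUSP16#1 (3.68 TPM), so the count of regained members depends on the limit. Centring moved the mean of FOXA1 to 0.09. GC removal moved STEAP2 to 0.03 and FKBP5 to -0.89. List medians (means of both hairpins) moved with centring to -0.21 for androgen response, 0.19 for luminal, -0.29 for basal, 0.064 for STEAP, 0.37 for TMPRSS and 0.11 for FKBP genes. With GC removal they moved to -0.39 for luminal, -0.37 for basal, -0.50 for STEAP and -0.14 for TMPRSS genes. Without a minimum they moved to -0.20 for androgen response, -0.29 for receptor, -0.11 for basal and 0 for kallikrein genes, with more low genes counted. For the basal list each hairpin alone gave from -0.51 to -0.32. A change or median counts as moved where it shifts by more than the gap between the hairpins. No alternative reversed the direction of FKBP5, the only result for which a reversal was defined. Other values could change sign and count at most as moved, as the luminal median did with centring (from -0.078 to 0.19). The cause of these moves was not tested.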

Other observations

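AKR1C3, an enzyme that reduces androgen precursors, was at 0.34 TPM in shCON, against 2.12 TPM with shUSP16#1 and 0.25 TPM with shUSP16#2, and it was the 1 gene of the androgen synthesis and breakdown list that passed from under 1 TPM to at least 1 TPM. Such a rise under a hairpin was seen in 4.18% of protein-coding genes under 1 TPM in shCON. TMPRSS2, STEAP4 and AKR1C3 each had their highest value under shUSP16#1, from levels near or under 1 TPM in shCON. Other list genes, such as HOXB13 and KRT15, were also highest there, so this is not particular to the 3 genes.

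Of the list genes, the integrin subunits of the hemidesmosome differed in direction. ITGB4 was at 102.09 TPM in shCON, against 219.34 TPM with shUSP16#1 and 430.82 TPM with shUSP16#2, while its partner ITGA6 was at 31.78, 14.19 and 13.08 TPM. KRT15, a basal keratin, was at 11.53, 47.47 and 26.41 TPM. ENO2, a neuronal enolase that many cells express, was at 16.07, 22.98 and 31.68 TPM.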
